A study of Mus musculus with 8 samples.

Results

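The 10 genes described here make and sense prostaglandins and leukotrienes: Pla2g4a, Ptgs1, Ptgs2, Ptges, Tbxas1, Ptger2, Ptger4, Alox5, Alox5ap and Ltc4s. They were taken by symbol from the 43346 genes of a deposited count table, and all 10 were found there. The list is one of names with no cutoff on a measured value, but it was chosen with earlier results of these data known. Prostaglandins and leukotrienes are lipid signals that cells make on demand from arachidonic acid, which the phospholipase encoded by Pla2g4a cuts out of membrane phospholipids. The cyclooxygenases encoded by Ptgs1 and Ptgs2 turn that acid into prostaglandin H2, from which the synthases encoded by Ptges and Tbxas1 make prostaglandin E2 and thromboxane A2, and Ptger2 and Ptger4 encode receptors for prostaglandin E2. On the other branch the lipoxygenase encoded by Alox5, helped by the membrane protein encoded by Alox5ap, makes leukotriene A4, and the enzyme encoded by Ltc4s joins it to glutathione to give leukotriene C4. In macrophages Ptgs2 and Ptges are known as genes that bacterial products switch on, whereas Ptgs1 and the lipoxygenase branch are known as part of the resting cell.

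Polyadenylated RNA was sequenced from 3 kinds of mouse macrophage, each harvested 3 h after LPS, the cell-wall lipopolysaccharide of Gram-negative bacteria, or unstimulated (0 h, called rest below). Cells labelled hMPDM gave 1 library after LPS and 1 at rest, RAW 264.7 cells (RAW), a macrophage-like mouse tumour line grown in DMEM with serum, gave 1 and 1, and bone-marrow-derived macrophages (BMDM), grown in medium conditioned by L929 cells, gave 2 and 2. No source used here says what hMPDM stands for or gives the LPS dose, and none says whether the 2 BMDM libraries of a state came from separate cultures, so that p-values measure the spread between these libraries only. For hMPDM and RAW, tests against BMDM assume that the single libraries vary as the BMDM pairs do.

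The libraries held between 3116434 and 19307312 counts, with the RAW pair the shallowest, so that 3 counts, the limit that a count of 0 allows, amount to between 0.155 and 0.963 CPM (counts scaled to library size). All 10 macrophage markers checked, Csf1r and Lyz2 among them, reached 5 CPM in at least 1 library, and their summed level lay between 14693 and 19607 CPM in the 8 libraries. Of 10 mast cell and basophil markers, 5 were at 0 in every library, Tpsb2 and Fcer1a among them, and of 8 B cell markers Ighm alone reached 5 CPM while Pax5 was at 0. In the hMPDM library taken after LPS, 15 genes chosen because BMDM expressed them at 5 CPM or more in both states and hMPDM at rest had them at no more than 5% of the BMDM level stood at 10.7% of their level in LPS-treated BMDM. The LPS ratios of the 10 genes in hMPDM, and their tested differences from BMDM that use that library, are therefore also given with 10.7% of the BMDM level taken off each gene. That leaves 89.3% of the library's counts, and the values given with the BMDM level taken off are TMM-scaled anew to the counts left. In bulk RNA, fewer cells expressing a gene and less of its RNA per cell cannot be told apart.

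The start regions of Ptgs2, Ptges and Ptgs1 are shown because these genes carry the main contrast below: after LPS the levels of Ptgs2 and Ptges rose and that of Ptgs1 fell. Each stretch is the 250 bases before the gene's RefSeq start, read 5′ to 3′ on the gene's own strand in the mouse build GRCm38.p6, with matches to the searched motifs in capitals. The Ptgs2 window is chr1:150099781-150100030 on the plus strand, the Ptges window chr2:30903298-30903547 on the minus strand and the Ptgs1 window chr2:36230176-36230425 on the plus strand.
Ptgs2: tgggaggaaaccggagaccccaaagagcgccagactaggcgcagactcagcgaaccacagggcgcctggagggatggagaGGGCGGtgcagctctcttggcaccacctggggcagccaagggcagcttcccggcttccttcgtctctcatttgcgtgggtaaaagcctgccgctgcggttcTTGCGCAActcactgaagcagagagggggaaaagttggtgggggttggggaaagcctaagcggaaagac
Ptges: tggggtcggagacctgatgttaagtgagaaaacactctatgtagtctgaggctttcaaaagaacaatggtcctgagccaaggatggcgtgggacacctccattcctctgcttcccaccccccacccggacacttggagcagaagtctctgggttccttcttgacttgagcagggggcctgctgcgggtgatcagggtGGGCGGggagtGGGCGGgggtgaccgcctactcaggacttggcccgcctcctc
Ptgs1: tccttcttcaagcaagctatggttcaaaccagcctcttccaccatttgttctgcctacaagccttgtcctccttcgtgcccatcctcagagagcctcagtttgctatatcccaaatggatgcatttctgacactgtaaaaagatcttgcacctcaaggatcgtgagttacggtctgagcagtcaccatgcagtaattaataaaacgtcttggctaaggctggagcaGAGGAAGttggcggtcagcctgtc
The Ptgs2 window holds GGGCGG, the core of an Sp1 GC box, from 170 bases before the start, and TTGCGCAA, a match to the C/EBP motif TTNNGCAA, from 69 bases before it. The Ptges window holds GGGCGG at 53 and again at 42 bases before the start, and the Ptgs1 window holds GAGGAAG, the core bound by the macrophage factor PU.1, at 24 bases before it. Searched on both strands over 32851 mouse windows of the same length, GGGCGG was found in 32.7%, GAGGAAG in 10.6% and TTNNGCAA in 9.56%. The windows are rich in G and C for Ptgs2 (61.6%) and Ptges (59.6%) and less so for Ptgs1 (48.0%), against a median of 52.4% over all windows. RefSeq windows were at hand for 9 of the 10 genes. Among them none matched the NF-kB consensus (3.90% of all windows) or the cAMP response element TGACGTCA (1.55%), and the AP-1 motif TGANTCA (6.75%) was found for Tbxas1. The TATA motif TATAAA (12.4%) was found for Tbxas1 and for Pla2g4a, which had windows at different starts. The Pla2g4a match lies in the window chr1:149922440-149922689, before a start inside the gene. The Pla2g4a window chr1:149961291-149961540, before the start of the annotated span, has no TATA match. GGGCGG also occurred before Alox5 and, at 4 positions, before Ptger4, and GAGGAAG before Tbxas1. A match is a run of letters, not a measured binding site.

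**Figure D1:**
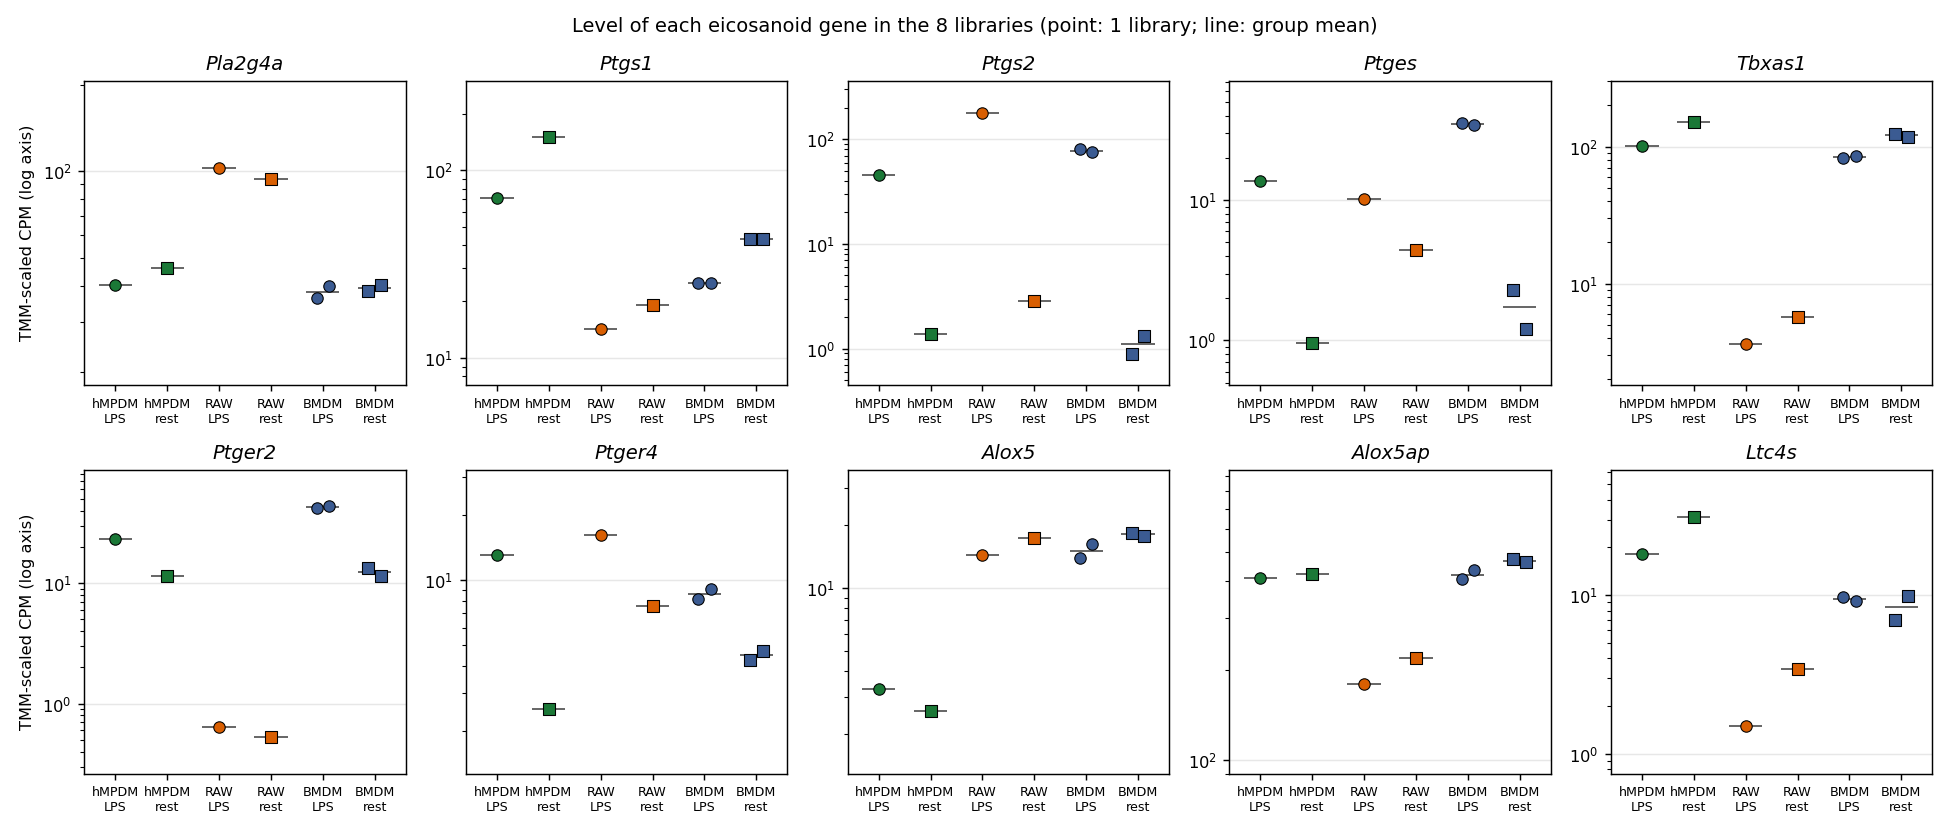
Level of each of the 10 genes in every library, in TMM-scaled CPM on log axes, with 1 point a library (circles after LPS, squares at rest) and a line at each group mean. Ptgs2 and Ptges are higher after LPS in all 3 cell types, Tbxas1 and Ptger2 are low in both RAW libraries, and Alox5 is low in both hMPDM libraries.

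In BMDM, 3 h of LPS raised 4 of the 10 genes and lowered 3. Ptgs2, Ptges, Ptger2 and Ptger4 rose, which are the inducible cyclooxygenase, the inducible prostaglandin E synthase and both prostaglandin E2 receptors of the list. Ptgs1, Tbxas1 and, by a small amount, Alox5ap fell, and Pla2g4a, Alox5 and Ltc4s did not pass the test. Among the 12461 genes tested, 62.7% were called, 31.7% higher and 31.1% lower, so the share of the 10 genes that was called is near that of all genes. A gene is called at an adjusted p under 0.05 in edgeR's quasi-likelihood test with Benjamini-Hochberg adjustment over all genes tested, and this test stands behind every adjusted p below unless DESeq2 or another setting is named. The standard errors (SE) given with it can be smaller than counting error alone where counts are few, as for Ptgs2 and Ptges at rest. The median log2 change was 0.05 over the 10 genes and -0.02 over all genes tested. Scaling by library size alone in place of TMM moves the median of all genes by -0.37. Under it Pla2g4a (-0.40, adjusted p = 5.17e-06) and Alox5 (-0.60, adjusted p = 2.80e-06) are called lower too, and the changes of Alox5ap (-0.52), Tbxas1 (-0.90) and Ptger4 (0.60) differ by more than 1.5 times from the TMM values given below.

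Ptgs2 showed the largest LPS response of the 10 genes in each of the 3 cell types. Its level, in CPM scaled between libraries by the trimmed mean of M values (TMM), was 46.0 CPM in hMPDM after LPS against 1.38 CPM at rest, and 180.2 CPM in RAW after LPS against 2.88 CPM at rest. In BMDM it was 80.0 and 75.0 CPM after LPS against 0.897 and 1.31 CPM at rest. No LPS library of any cell type came near a resting one. The log2 change in BMDM was 6.08 (SE 0.121, adjusted p = 2.82e-27), where the 2 resting libraries held 15 and 27 counts. The hMPDM ratio was 33.3, with a 95% counting interval of 21.6 to 53.7, and the RAW ratio was 62.6, with an interval of 34.8 to 126, both without a replicate. With the BMDM level taken off, 173 of the 211 Ptgs2 counts of the hMPDM LPS library were left, and the ratio was 30.5 (19.7 to 49.4). RAW after LPS held the highest level and hMPDM after LPS the lowest of the 3 LPS groups: against BMDM after LPS the log2 difference was -0.74 (SE 0.107, adjusted p = 2.32e-06) in hMPDM and 1.23 (SE 0.0749, adjusted p = 8.14e-15) in RAW. At rest the 3 cell types lay close together, and only the RAW level was called against BMDM, by 1.35 on the log2 scale (SE 0.523, adjusted p = 0.0286) from 11 counts. That call ends without the first BMDM library at rest, which gave an adjusted p of 0.0625 (range over the alternatives 0.0104 to 0.0625).

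Ptgs1, the constitutive cyclooxygenase, moved the other way. Its level was 71.1 CPM in hMPDM after LPS against 149.8 CPM in hMPDM at rest, and 14.3 CPM in RAW after LPS against 19.1 CPM in RAW at rest. In BMDM both LPS libraries stood at 25.1 CPM and both resting libraries at 43.2 CPM, so that the groups did not overlap. The BMDM level fell by 0.78 on the log2 scale (SE 0.0741, adjusted p = 1.60e-10). In hMPDM the ratio of the LPS to the resting level was 0.475 (0.422 to 0.533), and 0.511 (0.453 to 0.575) with the BMDM level taken off. In RAW it was 0.751, with an interval of 0.531 to 1.06 that holds 1. The larger contrast in Ptgs1 lies between cell types: both hMPDM libraries exceeded every other library and both RAW libraries lay below every other library. Ighm, the B cell marker noted above, followed the same order between cell types, at 176.3 and 197.9 CPM in hMPDM, 0 and 1.57 CPM in RAW and between 39.0 and 55.1 CPM in BMDM, with Pax5 at 0, and its part in the Ptgs1 levels was not tested. After LPS the log2 difference of Ptgs1 from BMDM was 1.50 (SE 0.108, adjusted p = 2.59e-12) in hMPDM and -0.81 (SE 0.168, adjusted p = 0.000115) in RAW. At rest it was 1.80 (SE 0.0561, adjusted p = 3.68e-21) in hMPDM and -1.18 (SE 0.148, adjusted p = 6.62e-08) in RAW. Scaling by library size alone moves the RAW value after LPS to -0.34 and ends that call (adjusted p = 0.0819, range over the alternatives 1.73e-05 to 0.0819).

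Per length of transcript, the cyclooxygenase that dominates a library changed with LPS in RAW and BMDM but not in hMPDM. In TPM, a scale that divides counts by gene length and so allows genes to be compared, Ptgs2 stood at 10.7 times Ptgs1 in RAW after LPS and at 0.128 times in RAW at rest. In BMDM it stood at 2.70 and 2.53 times Ptgs1 after LPS and at 0.0176 and 0.0257 times at rest. In hMPDM, Ptgs2 reached 25.5 TPM after LPS beside 46.4 TPM of Ptgs1, a ratio of 0.549 (0.467 with the BMDM level taken off), and at rest Ptgs1 stood 128-fold above Ptgs2. Ptgs1 thus remained the more abundant cyclooxygenase RNA in the hMPDM library after LPS, whereas Ptgs2 was the more abundant in each RAW and BMDM library after LPS.

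Pla2g4a, the phospholipase that supplies both branches, was highest in RAW, and its LPS response did not pass the test in BMDM. Its level was 40.1 CPM in hMPDM after LPS against 45.9 CPM at rest, and 102.9 CPM in RAW after LPS against 93.9 CPM at rest. In BMDM it was 36.1 and 39.8 CPM after LPS against 38.4 and 40.1 CPM at rest, and these groups overlapped. The log2 change in BMDM was -0.03 (SE 0.0709, adjusted p = 0.731), or -0.40 and called lower by library size alone. The hMPDM ratio was 0.874 (0.740 to 1.03), or 0.876 (0.736 to 1.04) with the BMDM level taken off, and the RAW ratio was 1.10 (0.954 to 1.26). These intervals hold 1, though by library size alone the hMPDM log2 ratio is -0.58. The 2 RAW libraries stood above all the others, with a log2 difference from BMDM of 1.42 (SE 0.0938, adjusted p = 5.25e-14) after LPS and 1.26 (SE 0.0970, adjusted p = 3.30e-12) at rest. The resting hMPDM level was called higher than that of BMDM by 0.22 (SE 0.0741, adjusted p = 0.0167), a call that ends in DESeq2, with a coefficient of variation of 10%, under 1 of the fits with a replicate block and without the first BMDM library at rest, where the adjusted p was 0.101 (between 0.00637 and 0.682 over the alternatives). Pla2g4a and Ptgs2 are neighbours: their starts lie 138.741 kb apart on chromosome 1 and point away from each other, and of this pair only Ptgs2 rose with LPS in BMDM.

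Ptges and Tbxas1, which compete for the product of the cyclooxygenases, parted in the same way as the cyclooxygenases themselves. Ptges was at 13.7 CPM in hMPDM after LPS against 0.962 CPM at rest, and at 10.3 CPM in RAW after LPS against 4.45 CPM at rest. In BMDM it was at 35.4 and 34.3 CPM after LPS against 2.27 and 1.21 CPM at rest, a gap many times the difference within either pair. The log2 change in BMDM was 4.35 (SE 0.149, adjusted p = 2.89e-21). The hMPDM ratio was 14.3 (8.16 to 26.5), or 11.7 (6.48 to 22.1) with the BMDM level taken off and 46 counts left of 63. The RAW ratio was only 2.31 (1.30 to 4.28), from 48 counts after LPS and 17 at rest. Set against BMDM, the log2 difference of Ptges in RAW was -1.76 after LPS (SE 0.198, adjusted p = 6.07e-09) and 1.39 at rest (SE 0.456, adjusted p = 0.0102). In hMPDM after LPS the log2 difference from BMDM was -1.34 (SE 0.185, adjusted p = 1.20e-06), and at rest it was -0.80, which did not pass the test (adjusted p = 0.119). Without the second BMDM library at rest that difference was -1.23 and passed it (adjusted p = 0.0103, the lowest over the alternatives, against 0.622 at the highest).

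Tbxas1, thromboxane A synthase, was at 100.4 CPM in hMPDM after LPS against 150.9 CPM at rest. In BMDM it was at 82.4 and 84.9 CPM after LPS against 124 and 119 CPM at rest. In both cell types the LPS libraries lay below the resting ones. The BMDM level fell by 0.53 on the log2 scale (SE 0.0504, adjusted p = 1.59e-10), and the hMPDM ratio was 0.665 (0.601 to 0.735), or 0.677 (0.609 to 0.751) with the BMDM level taken off. In RAW the level was 3.64 CPM after LPS and 5.76 CPM at rest, from 17 and 22 counts, with a ratio of 0.632 whose interval of 0.315 to 1.25 holds 1. The RAW level lay far below that of BMDM in both states, with a log2 difference of -4.52 (SE 0.192, adjusted p = 1.30e-18) after LPS and -4.39 (SE 0.170, adjusted p = 3.31e-19) at rest, a wider gap than for any other of the 10 genes except Ptger2. The differences of hMPDM from BMDM were small, 0.26 after LPS (adjusted p = 0.0214) and 0.32 at rest (adjusted p = 9.18e-06), and both calls end in DESeq2 and under a coefficient of variation of 10% (adjusted p up to 0.519 and 0.307 over the alternatives). Platelets are also known for thromboxane synthesis. Of 10 megakaryocyte and platelet markers 3 reached 5 CPM, led by Pf4, and Gp1bb and Gp6 were at 0 in every library. Their sum was 659.8 CPM in hMPDM after LPS and 490.1 CPM at rest, 12.0 and 9.16 CPM in RAW, between 500.1 and 506 CPM in BMDM after LPS and between 382 and 399 CPM in BMDM at rest, so that it was low where Tbxas1 was low, and its part in the Tbxas1 levels was not tested.

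Ptger2, the first of the receptors, rose with LPS in BMDM and was barely detected in RAW. It was at 23.3 CPM in hMPDM after LPS against 11.4 CPM at rest, and at 42.0 and 43.7 CPM in BMDM after LPS against 13.5 and 11.5 CPM at rest. Neither cell type's LPS libraries overlapped with its resting ones. The log2 change in BMDM was 1.80 (SE 0.0870, adjusted p = 2.04e-17), and the hMPDM ratio was 2.04 (1.60 to 2.60), or 1.84 (1.41 to 2.38) with the BMDM level taken off. After LPS hMPDM was lower than BMDM, by -0.88 on the log2 scale (SE 0.142, adjusted p = 1.30e-05), a call that DESeq2 does not make (adjusted p = 0.0728, range over the alternatives 9.86e-09 to 0.0728). At rest the difference was -0.12, which did not pass the test (SE 0.128, adjusted p = 0.506). RAW had 3 Ptger2 counts after LPS and 2 at rest, which is at or under the 3 counts taken as the floor. Against BMDM the RAW level was 67.2-fold lower after LPS (95% counting interval 22.9 to 326) and 23.7-fold lower at rest (6.52 to 196), and both differences were called (adjusted p = 9.33e-16 and 1.37e-08). At this depth no LPS response of Ptger2 could be read in RAW, where the ratio of 1.23 has an interval of 0.141 to 14.7.

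Ptger4, which signals through cyclic AMP as Ptger2 does, was measured at moderate levels in all 3 cell types and was higher after LPS in each. It was at 13.1 CPM in hMPDM after LPS against 2.52 CPM at rest, and at 16.3 CPM in RAW after LPS against 7.59 CPM at rest. In BMDM it was at 8.16 and 9.09 CPM after LPS against 4.24 and 4.70 CPM at rest. The groups did not overlap in BMDM, where the log2 change was 0.96 (SE 0.158, adjusted p = 4.49e-06). The ratio was 5.19 (3.44 to 7.89) in hMPDM, 5.41 (3.56 to 8.27) with the BMDM level taken off, and 2.14 (1.38 to 3.41) in RAW. After LPS the hMPDM level differed from that of BMDM by 0.58 on the log2 scale (SE 0.221, adjusted p = 0.0552), which did not pass the test but is called under 5 of 12 alternatives, among them leaving out either resting BMDM library (adjusted p between 0.0348 and 0.635). At rest it was lower than that of BMDM, by -0.83 (SE 0.232, adjusted p = 0.00500, up to 0.445 in DESeq2). RAW was above BMDM by 0.89 after LPS (adjusted p = 0.000393) and by 0.75 at rest (adjusted p = 0.0327). The call after LPS ends in DESeq2 alone (adjusted p = 0.0922), and the resting one under 5 of 11 alternatives, among them leaving out the first BMDM library at rest (adjusted p = 0.0546, up to 0.239 over the alternatives). In TPM, Ptger2 stood above Ptger4 in every hMPDM and BMDM library, between 3.22 and 9.29 times, and below it in RAW, at 0.0712 times after LPS and 0.124 times at rest. With the BMDM level taken off, the value in hMPDM after LPS was 2.77 times.

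On the leukotriene branch the LPS changes in BMDM were small or not called on the TMM scale, and the wider contrasts lay between cell types. Alox5, the 5-lipoxygenase, was at 3.27 CPM in hMPDM after LPS against 2.58 CPM at rest, from 15 and 43 counts. It was at 14.3 CPM in RAW after LPS against 17.3 CPM at rest, and at 13.9 and 16.2 CPM in BMDM after LPS against 18.4 and 17.7 CPM at rest. Both hMPDM libraries lay well below all the others, while RAW and BMDM overlapped. The hMPDM level differed from that of BMDM by -2.23 on the log2 scale after LPS (SE 0.293, adjusted p = 5.24e-07) and by -2.80 at rest (SE 0.173, adjusted p = 4.15e-14). With the BMDM level taken off, 8 of the 15 counts in hMPDM after LPS were left, the difference after LPS was -2.97 and the ratio to rest was 0.754 (0.306 to 1.62). The BMDM change with LPS, -0.23 (SE 0.103, adjusted p = 0.0535), did not pass the test, though it is called under 5 of 12 alternatives, among them leaving out the second BMDM library after LPS (-0.37, adjusted p = 0.0426, between 2.80e-06 and 0.599 over the alternatives). Neither RAW difference from BMDM passed the test (adjusted p = 0.654 after LPS and 0.787 at rest). Neutrophils are also known for 5-lipoxygenase. Of 10 neutrophil markers 2 reached 5 CPM, S100a8 and Ngp. The sum of all 10 was 21.6 and 18.1 CPM in hMPDM, 4.49 and 4.19 CPM in RAW, and between 38.0 and 61.8 CPM in the 4 BMDM libraries. The markers did not all follow this order. At rest S100a8 was at 5.89 CPM in hMPDM against 14.8 and 19.4 CPM in BMDM, and Ngp at 1.26 against 11.4 and 12.0 CPM. Mpo (3.85 against 2.27 and 2.57 CPM), Prtn3 (3.25 against 2.21 and 1.31 CPM) and Ctsg (2.76 against 1.61 and 1.65 CPM) were higher in hMPDM at rest. The part of neutrophil markers in the Alox5 levels was not tested.

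Alox5ap, the protein that presents arachidonic acid to the lipoxygenase, was the most abundant of the 10 per length in all 8 libraries, at 734 to 1819 TPM. It was at 407.6 CPM in hMPDM after LPS against 420.8 CPM at rest, at 179.8 CPM in RAW after LPS against 219.5 CPM at rest, and at 404 and 435 CPM in BMDM after LPS against 473 and 464 CPM at rest. The BMDM groups did not overlap but lay close together. The hMPDM ratio was 0.969 (0.920 to 1.02), or 0.963 (0.912 to 1.02) with the BMDM level taken off. The BMDM level fell by 0.15 on the log2 scale (SE 0.0380, adjusted p = 0.000907), a call that ends in DESeq2 and with a coefficient of variation of 10% (adjusted p up to 0.409 over the alternatives), and by library size alone the change was -0.52. RAW lay below BMDM, with a log2 difference of -1.23 after LPS (SE 0.0639, adjusted p = 1.75e-16) and -1.09 at rest (SE 0.0628, adjusted p = 3.82e-15). In TPM, Alox5ap stood 600-fold and 785-fold above Alox5 in hMPDM after LPS and at rest, 60.4-fold and 61.3-fold in RAW, and between 124-fold and 140-fold in the 4 BMDM libraries. With the BMDM level taken off, the hMPDM value after LPS was 1001-fold, from 8 Alox5 counts, so its order against rest is not settled.

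Ltc4s, leukotriene C4 synthase, was highest in hMPDM and lowest in RAW. It was at 18.1 CPM in hMPDM after LPS against 30.9 CPM at rest, and at 1.50 CPM in RAW after LPS against 3.40 CPM at rest, the RAW values from 7 and 13 counts. In BMDM it was at 9.67 and 9.25 CPM after LPS against 6.93 and 9.88 CPM at rest, and these overlapped. The BMDM change of 0.14 (SE 0.152) did not pass the test (adjusted p = 0.453), and without the second BMDM library at rest it was 0.44 and passed it (adjusted p = 0.0245, the lowest over the alternatives, against 0.800 at the highest). The hMPDM ratio was 0.586 (0.459 to 0.740), or 0.615 (0.479 to 0.782) with the BMDM level taken off. The RAW ratio of 0.441 has an interval of 0.149 to 1.19, which holds 1. Against BMDM, hMPDM was higher by 0.95 on the log2 scale after LPS (SE 0.223, adjusted p = 0.00165) and by 1.85 at rest (SE 0.120, adjusted p = 1.35e-13). DESeq2 does not call the value after LPS (adjusted p = 0.181, range over the alternatives 3.46e-06 to 0.181). RAW was lower by -2.64 after LPS (SE 0.450, adjusted p = 7.70e-06) and by -1.33 at rest (SE 0.387, adjusted p = 0.00429), and DESeq2 does not call the resting value (adjusted p = 0.0649, the highest over the alternatives). Mast cells are also known for leukotriene C4. Of their markers and those of basophils Hdc alone reached 5 CPM, and their sum was 12.7 CPM in hMPDM after LPS and 0.541 CPM at rest, 2.78 and 0.523 CPM in RAW, 12.4 and 15.6 CPM in BMDM after LPS and 0.598 and 0.533 CPM in BMDM at rest, so that it was low in every resting library and higher in hMPDM and BMDM after LPS. Its part in the Ltc4s levels was not tested.

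**Figure D2:**
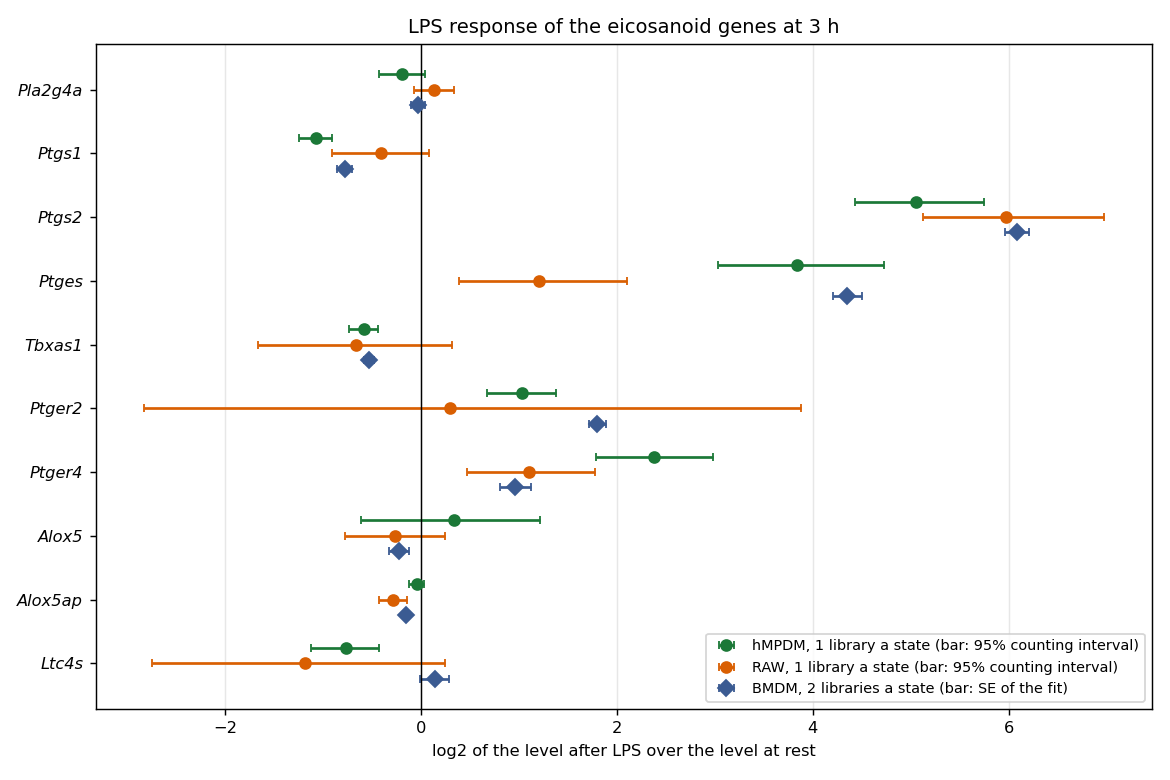
LPS response of each gene at 3 h as the log2 of its level after LPS over its level at rest, for hMPDM and RAW (1 library a state, bars are 95% counting intervals) and BMDM (2 libraries a state, bars are SE of the fit). With few counts the SE can be smaller than counting error, so the 2 kinds of bar are not alike. Ptgs2 has the largest response in each cell type (ratios of 33.3 in hMPDM and 62.6 in RAW, log2 change of 6.08 in BMDM), and the Ptges response of RAW (ratio 2.31) lies far left of those of hMPDM and BMDM.

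A fit of 1 LPS effect for all 3 cell types called the same 4 genes higher, Ptgs2 by 5.81 on the log2 scale (SE 0.175, adjusted p = 5.10e-06), Ptges by 3.86 (SE 0.417, adjusted p = 0.000647), Ptger2 by 1.56 (SE 0.162, adjusted p = 0.000563) and Ptger4 by 1.29 (SE 0.239, adjusted p = 0.00464). It called 2 genes lower, Ptgs1 by -0.81 (SE 0.0957, adjusted p = 0.000873) and Tbxas1 by -0.56 (SE 0.0562, adjusted p = 0.000508). Among all genes tested 49.1% were called, 25.0% higher and 24.2% lower. This fit shares its BMDM libraries with the BMDM comparison, and the effect it gives for Ptger2 is carried by BMDM and hMPDM, since RAW had 5 counts of the gene in all. It assumes equal responses, yet those of Ptges in RAW and of Ptger4 and Ptger2 in hMPDM were called different from BMDM, as given below. In RAW the counting intervals of the Ptgs1 and Tbxas1 ratios hold 1. With the BMDM level taken off the hMPDM library, the same 4 and 2 genes were called.

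By size alone, LPS took 4 of the 10 genes up 2-fold or more in hMPDM (Ptgs2, Ptges, Ptger4 and Ptger2) and 1 down (Ptgs1), beside 10.2% up and 8.35% down among the genes tested, 18.6% in all. With the BMDM level taken off, Ptger2 and Ptgs1 (ratios of 1.84 and 0.511) no longer pass that limit, which leaves 3 up and 0 down, beside 9.77% and 9.06%, 18.8% in all. In RAW 3 were up by that much (Ptgs2, Ptges and Ptger4) and 1 down (Ltc4s, from 7 and 13 counts), beside 3.5% and 2.96%, 6.46% in all. Between the 2 BMDM libraries of a state 0 of the 10 differed 2-fold, where 1.04% of all genes did after LPS and 0.177% at rest. These ratios have no replicate and carry no test.

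Tested as a signed difference of log2 responses, hMPDM minus BMDM, 1 gene of the 10 was called higher and 2 lower. Among all genes tested 3.96% were called higher and 3.89% lower, 7.86% in all. The response of Ptger4 was larger in hMPDM by 1.41 on the log2 scale (SE 0.323, adjusted p = 0.00401). That of Ptger2 was smaller, by -0.77 (SE 0.196, adjusted p = 0.0114). That of Ltc4s differed by -0.91 (SE 0.242, adjusted p = 0.0153), where its level fell in hMPDM and its BMDM change did not pass the test. All 3 calls end where the coefficient of variation is set to 10% (adjusted p = 0.0573, 0.495 and 0.251), which is the highest over the alternatives, where the lowest were 0.000710, 0.00154 and 5.58e-05. DESeq2 gave no adjusted p for them. The difference for Ptgs2, -1.04 (SE 0.397, adjusted p = 0.126), did not pass the test. With the BMDM level taken off the hMPDM library, the 3 calls stood, at 1.47, -0.92 and -0.84. Between RAW and BMDM only the response of Ptges was called different, by -3.15 on the log2 scale (SE 0.548, adjusted p = 4.62e-05, highest over the alternatives 0.000110). For Ptger2 (-1.51, SE 1.37) and Ltc4s (-1.31, SE 0.731) the RAW counts, 3 and 2 and 7 and 13, were too few to tell. Among all genes 22.7% were called, 12.7% with a lower signed response in RAW and 10.0% with a higher one. edgeR and DESeq2 each called 0 of the 10 genes higher in RAW minus BMDM, and 0 reached an unadjusted p under 0.05 in that direction. The Ptgs2 responses of RAW and BMDM differed by -0.12 (SE 0.455, adjusted p = 0.943), with values between -0.45 and 0.15 over the alternatives.

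**Figure D3:**
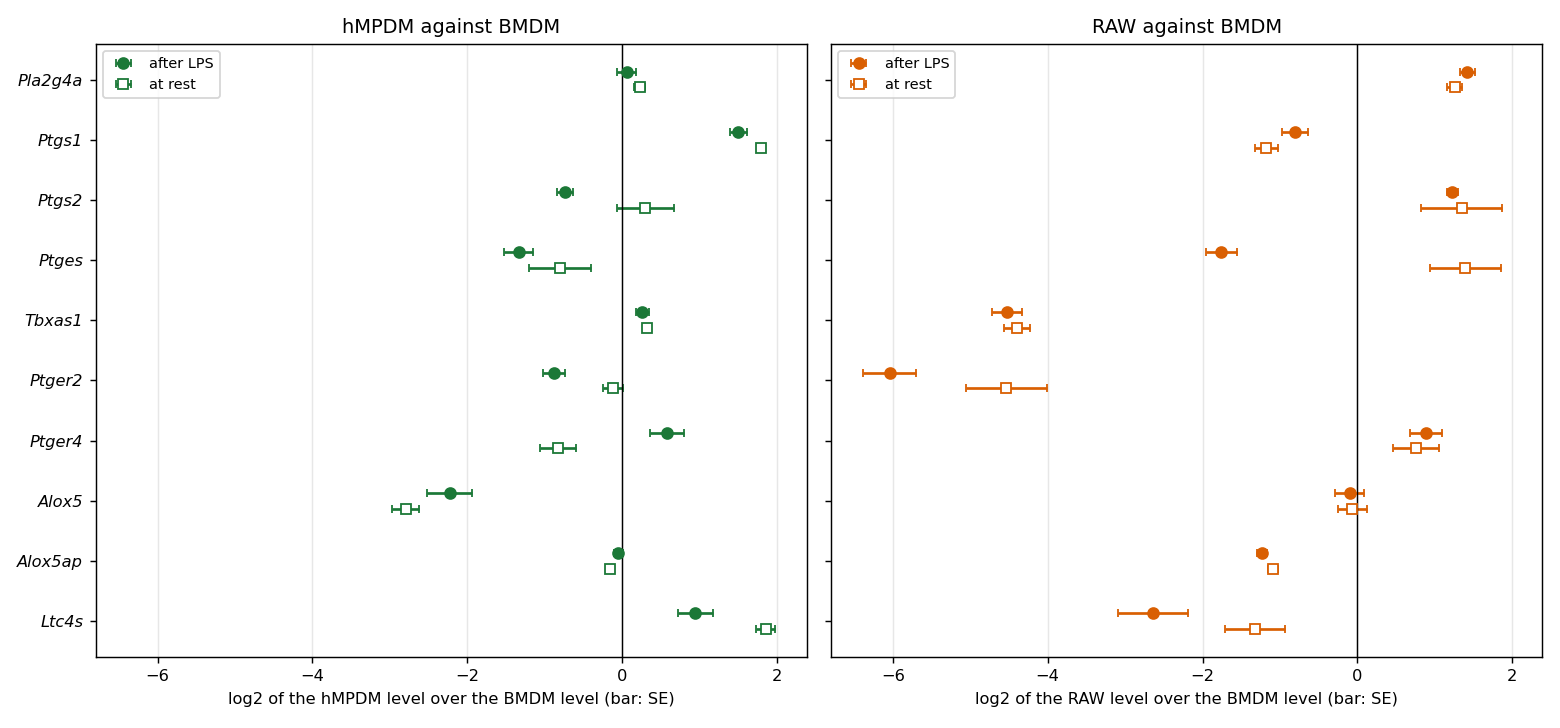
Log2 of the level of each gene in hMPDM (left) and RAW (right) over its level in BMDM, after LPS (filled circles) and at rest (open squares), with bars of 1 SE from the fit, which can be smaller than counting error where counts are few. In hMPDM, Ptgs1 and Ltc4s lie to the right of 0 and Alox5 to the left in both states, and in RAW Tbxas1 and Ptger2 lie beyond -4 in both.

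Across the list, hMPDM after LPS was called above BMDM in 3 genes and below it in 4, beside 12.5% each way of the genes tested, 25.0% in all. With the BMDM level taken off, the log2 differences of hMPDM from BMDM after LPS were 1.61 for Ptgs1, 1.02 for Ltc4s, 0.64 for Ptger4 and 0.28 for Tbxas1, all called higher, Ptger4 in addition to those called without it (adjusted p = 0.0348). They were -2.97 for Alox5, -1.63 for Ptges, -1.04 for Ptger2 and -0.87 for Ptgs2, all called lower, and 0.06 for Pla2g4a and -0.06 for Alox5ap, which did not pass the test. At rest hMPDM was above BMDM in 4 and below in 3, beside 19.0% and 19.2%, 38.2% in all. RAW after LPS was above BMDM in 3 genes and below it in 6, beside 29.8% and 36.4%, 66.2% in all. At rest it was above in 4 and below in 5, beside 27.1% and 31.3%, 58.4% in all. In RAW after LPS the genes above were Pla2g4a, Ptgs2 and Ptger4, and those below were Ptger2, Tbxas1, Ltc4s, Ptges, Alox5ap and Ptgs1. The median log2 difference of RAW from BMDM after LPS was -1.02 over the 10 genes and -0.09 over all genes tested. The comparisons at rest and after LPS use different libraries of the same cells, and those of hMPDM and RAW share the BMDM libraries. The last comparison sets hMPDM directly against RAW, with no test and without the BMDM level taken off. After LPS hMPDM was 2-fold or more above RAW in 5 of the 10 genes and below it in 3, beside 18.4% and 15.0%, 33.4% in all. At rest it was above in 4 and below in 4, beside 14.2% and 11.2%, 25.4% in all. The widest of these gaps were in Ptger2, 36.4-fold after LPS (12.1 to 179) from 3 RAW counts, and in Tbxas1, 27.6-fold after LPS (17.0 to 47.8) and 26.2-fold at rest (17.3 to 41.9).

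The order of the levels, over the 6 groups, sets some neighbours apart and not others once counting error and the spread of the BMDM pairs are allowed for. For Ptgs2 the order was RAW, BMDM and hMPDM after LPS, each apart from the next, and then RAW, hMPDM and BMDM at rest, which overlapped. For Ptges it was BMDM after LPS, then hMPDM and RAW after LPS, which overlapped, then RAW, BMDM and hMPDM at rest, each overlapping its neighbour. For Ptgs1 the hMPDM levels at rest and after LPS and the BMDM levels at rest and after LPS stood apart in that order, and the BMDM level after LPS overlapped that of RAW at rest. For Ptger4 every neighbour in the order overlapped the next, from RAW after LPS at the top to hMPDM at rest at the bottom.

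Other genes of the pathway were counted from 4 lists of 58 names, of which 56 were in the table and 36 had enough counts to be tested. No read was counted in any library for 9 of them, Ptgds, Ptgis, Ptgdr, Ptgdr2, Ptgfr, Tbxa2r, Slco2a1, Alox12b and Pla2g4e, so that the synthases of prostacyclin and of prostaglandin D2 in the brain, and the thromboxane receptor, were not detected. In BMDM, LPS raised 13 of the 36 and lowered 9, 36.1% and 25.0% of them beside 31.7% and 31.1% of all genes tested, so that the share called is near that of all genes, with a median log2 change of -0.04 against -0.02 over all genes tested. Of the 8 other prostanoid enzymes tested 2 rose and 3 fell, and Hpgds, the prostaglandin D synthase of blood cells, fell to 181.8 ± 6.27 CPM after LPS, against 276.9 ± 3.77 CPM at rest (SD, n = 2 each). Of the 4 other prostanoid receptors and carriers 2 rose and 2 fell. Ptgir, the prostacyclin receptor, rose to 84.3 ± 6.19 CPM after LPS against 25.5 ± 1.61 CPM at rest (log2 change 1.75, adjusted p = 6.93e-20). Of the 11 other leukotriene and lipoxygenase genes 5 rose and 1 fell, and Abcc1, which exports leukotriene C4, reached 590.1 ± 31.3 CPM after LPS against 258 ± 4.47 CPM at rest (log2 change 1.20, adjusted p = 7.70e-22). Of the 13 genes of arachidonate release and remodelling 4 rose and 3 fell: Lpcat2, which rebuilds phospholipids and makes platelet-activating factor, rose by 0.91 (adjusted p = 2.33e-16), and Daglb, a diacylglycerol lipase, fell by 0.91 (adjusted p = 7.10e-13).

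**Figure D4:**
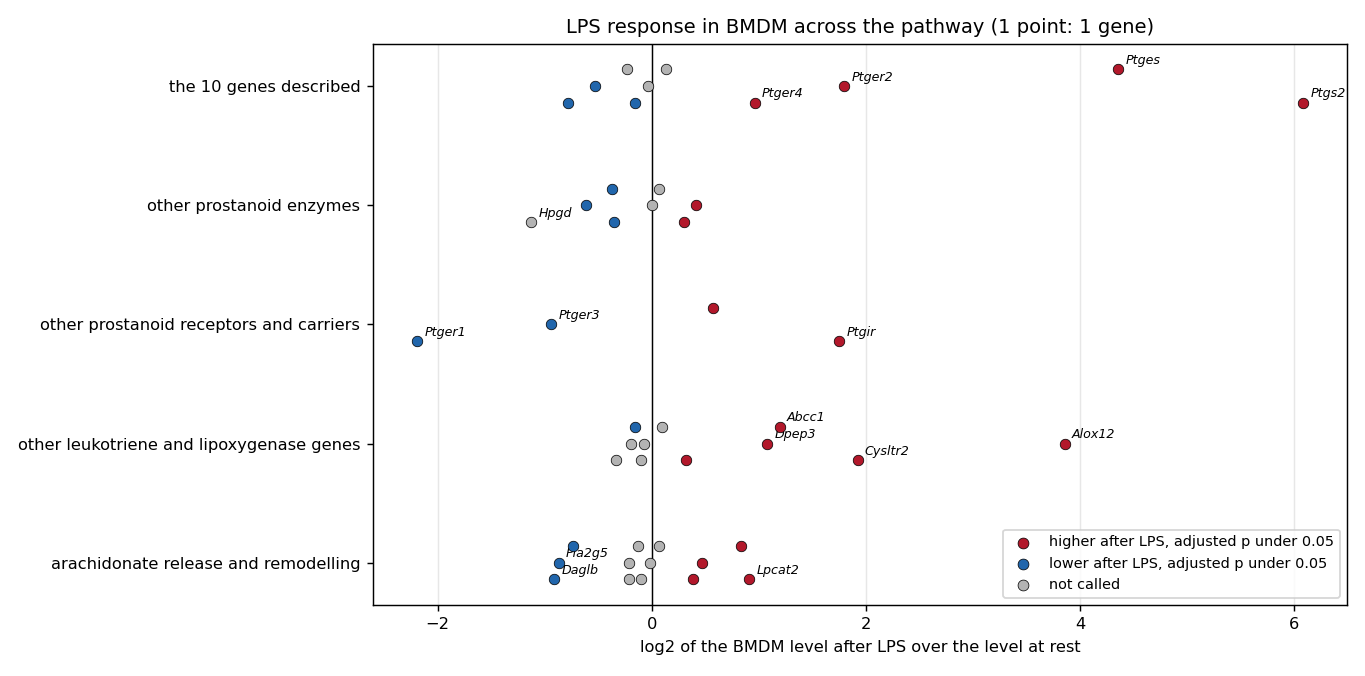
LPS response in BMDM, as log2 of the level after LPS over the level at rest, with 1 point a tested gene, for the 10 genes described and the 4 lists of other pathway genes (red higher and blue lower at an adjusted p under 0.05, grey not called). Ptgs2 at 6.08 and Ptges at 4.35 lie farthest to the right, and most of the other pathway genes lie within 1 of 0.

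For the same lists, values of the hMPDM LPS library are given only without the BMDM level taken off. In them hMPDM after LPS was above BMDM in 4 of the 36 and below in 9 (36.1% called in all, beside 25.0% of all genes tested), and at rest above in 8 and below in 12 (55.6%, beside 38.2%). Among the genes called with at least 5 CPM in the higher group, Pla2g7, the plasma-type platelet-activating factor hydrolase, differed most. It was at 4.36 CPM in hMPDM after LPS, from 20 counts, against 32.3 ± 4.64 CPM in BMDM after LPS. At rest it was at 1.86 CPM in hMPDM against 25.3 ± 1.21 CPM in BMDM. Lpcat3, which puts arachidonic acid back into phospholipids, was higher in hMPDM after LPS by 1.03 (adjusted p = 6.41e-13). RAW was above BMDM in 8 and below in 19 after LPS (75.0%, beside 66.2%), and above in 8 and below in 16 at rest (66.7%, beside 58.4%). Pla2g7 had 0 counts in RAW after LPS, at least 50.3-fold lower than in BMDM taking 3 counts as the floor of the library, and 2 counts at rest. Ggt5, which trims leukotriene C4 to D4, had 0 counts after LPS, at least 13.5-fold lower, and 1 at rest. Pla2g5, a secreted phospholipase, was higher in RAW by 2.70 after LPS (adjusted p = 7.60e-08), from 46 counts against 6 and 23 in BMDM. As differences of response, hMPDM against BMDM gave 1 of the 36 higher, Anxa1 by 0.52, and 3 lower, Ptgir by -0.86, Lpcat2 by -0.50 and Abcc1 by -0.41 (11.1% in all, beside 7.86% of all genes). RAW against BMDM gave 4 lower (also 11.1%, beside 22.7%), among them Lpcat2 by -0.69, Abcc4 by -0.63 and Abcc1 by -0.57, and 0 higher in edgeR, where 2 reached an unadjusted p under 0.05, and 0 higher in DESeq2.

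Over the 8 libraries, the genes whose log2 level followed that of a member most closely were sought among 10405 tested genes that reached 5 CPM in 1 library. For Ptgs2 they were Olr1, Hcar2 and Ubtd2, with Pearson r of 0.989, 0.988 and 0.985. For Ptges they were Exoc3l4, Impad1 and Slamf8 (0.993, 0.991 and 0.990), for Alox5 Rnf128, Galm and Parvb (0.995, 0.988 and 0.986), and for Ltc4s Slc9a7, Npl and Ptpn18 (0.990, 0.989 and 0.988). These are descriptions over libraries that share cell type and state, taken from the top of a long ranking.

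The 10 genes lie on 7 chromosomes in the mm10 build of the table. Ptgs2 (ENSMUSG00000032487.8) spans chr1:150100031-150108227 on the plus strand and Pla2g4a (ENSMUSG00000056220.10) chr1:149829618-149961290 on the minus strand. Ptgs1 (ENSMUSG00000047250.9) spans chr2:36230426-36252272 on the plus strand and Ptges (ENSMUSG00000050737.13) chr2:30889471-30929863 on the minus strand, so that the RefSeq start used above lies inside the annotated span. Tbxas1 (ENSMUSG00000029925.9, plus) and Alox5 (ENSMUSG00000025701.8, minus) lie at chr6:38875404-39084585 and chr6:116410077-116461178. Alox5ap (ENSMUSG00000060063.6, plus) lies at chr5:149265058-149288045, Ltc4s (ENSMUSG00000020377.10, minus) at chr11:50236469-50238616, Ptger2 (ENSMUSG00000037759.5, plus) at chr14:44988195-45003820 and Ptger4 (ENSMUSG00000039942.11, minus) at chr15:5206661-5244187. Exons of Ptger4 share 82 bases with Ttc33 and 1015 bases with the pseudogene Gm15937 (0 to 2 counts), and those of Ltc4s share 192 bases with the antisense gene Gm26542 (1 to 10 counts), all on the opposite strand. Whether the counting used strand is not given in the sources used here, so reads from these stretches cannot be assigned with certainty.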

How the data were processed

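The authors deposited raw read counts per gene in 1 table, with a gene length beside them that the table's header gives in bases. Per the submitters' processing notes, cutadapt, STAR, SAMtools, bedtools and featureCounts were used with the mm10 genome build, with no version named. Per the labels' protocols, RNA was extracted with TRIzol, and a KAPA stranded kit and single-end Illumina reads were used. Of 10 value columns, 8 matched a sample's labels and 2 were not used. Of 43346 identifiers, 42462 matched a symbol.

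Library totals ran from 3116434 to 19307312 counts. Counts were tested with edgeR 4.0.16 (with limma 3.58.1, in R 4.3.3): genes kept by filterByExpr (12461), TMM scaling, a quasi-likelihood fit with 1 coefficient for each of the 6 groups over all 8 libraries (2 residual degrees of freedom, fitted coefficient of variation 2.27%), and Benjamini-Hochberg adjustment over all genes tested, called at 0.05. The LPS effect common to the cell types came from an additive fit of cell type and state (4 residual degrees of freedom). The SE was obtained from the F statistic of the test (log2 value over root F), and with few counts it can be smaller than counting error alone. Ratios of single libraries have no test and carry exact 95% intervals, which, like the floor of 3 counts, cover counting error only. Counting 2-fold differences used a prior count of 2 and asked for 1 CPM in the higher of the 2 libraries. TPM were computed from the counts and the deposited lengths.

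The 10 genes, the 4 lists of other pathway genes and the markers were chosen with earlier results of these data known. All 10 genes were named. Of the other pathway genes, the 3 largest rises and falls called in each comparison with at least 5 CPM in the higher group were named, and those with no read, and for 4 genes the 3 most alike in log2 level (0.5 CPM added). Alternatives were DESeq2 1.42.0 and its size factors, library size only, no filter, a coefficient of variation of 10%, each BMDM library left out, the replicate number as a block (hMPDM and RAW libraries numbered 1 or, chosen after seeing the data, 2), BMDM libraries alone, and the hMPDM LPS library less 10.7% of the BMDM level. Same-numbered BMDM libraries did not deviate together (r = -0.0346 across 12461 genes), so their numbers were not taken to pair them. The fits were tested on simulated data. Promoter windows came from RefSeq (GRCm38.p6).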

Additional observations from a re-analysis of the deposited data

Results flagged for a closer look

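Responses to LPS that differed between cell types, by a test of the difference itself in edgeR's quasi-likelihood fit, were called for 4 of the 10 genes. Among all genes tested, 7.86% were called for hMPDM minus BMDM and 22.7% for RAW minus BMDM. The response of Ptger4 in hMPDM exceeded that in BMDM by 1.41 on the log2 scale (adjusted p = 0.00401), with levels of 13.1 CPM after LPS and 2.52 CPM at rest in hMPDM, and 8.63 ± 0.658 CPM after LPS and 4.47 ± 0.322 CPM at rest in BMDM (SD, n = 2 each). The response of Ptger2 in hMPDM differed from that in BMDM by -0.77 (adjusted p = 0.0114), and that of Ltc4s by -0.91 (adjusted p = 0.0153). The hMPDM calls of Ptger4, Ptger2 and Ltc4s end in edgeR with a coefficient of variation of 10% (adjusted p = 0.0573, 0.495 and 0.251). DESeq2 gave no adjusted p for them. The response of Ptges in RAW differed from that in BMDM by -3.15 (adjusted p = 4.62e-05), with levels of 10.3 CPM after LPS and 4.45 CPM at rest in RAW, and 34.8 ± 0.744 CPM after LPS and 1.74 ± 0.750 CPM at rest in BMDM. The hMPDM and RAW sides of these differences are 1 library a state.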

How the results depend on the processing

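Of 915 values of the 10 genes recomputed under an alternative, 853 kept their direction and their side of the threshold, 29 lost a call, 18 gained one and 15 changed sign, none of the 15 being called in the reported fit. Library size in place of TMM moves the median of all genes by -0.37 in the BMDM response, -0.31 in the common response, 0.27 in the RAW minus BMDM response, 0.20 for RAW at rest and 0.47 for RAW after LPS. Under it 5 of the 10 genes were lower with LPS in BMDM (3 as reported) and 5 in the common response (2 as reported). In the RAW minus BMDM response 2 were called higher (0 as reported), Ptgs1 by 0.63 and Pla2g4a by 0.43 (adjusted p = 0.0467 and 0.00889). With library size alone both fell with LPS in BMDM, so these positive values do not mean larger responses in RAW. Values that changed sign under it were Ltc4s in the BMDM response (-0.23), in the RAW minus BMDM response Ptgs2 (0.15), Alox5 (0.23), Alox5ap (0.13) and Tbxas1 (0.14), and Alox5 in RAW at rest (0.14) and after LPS (0.36). DESeq2 and a coefficient of variation of 10% gave fewer calls. In that order, they called 4159 and 5161 genes in the BMDM response (7815 as reported), 264 and 123 in the hMPDM minus BMDM response (979), 1374 and 1211 in the RAW minus BMDM response (2832), 1365 and 1714 for hMPDM at rest (4766), and 1246 and 1235 for hMPDM after LPS (3121), and DESeq2 4463 for RAW at rest (7282). In the hMPDM minus BMDM response both called 0 of the 10 genes higher and 0 lower (1 and 2 in edgeR as reported). At an unadjusted p under 0.05, DESeq2, which gave no adjusted p for 5 of the 10, had 1 higher and 1 lower and the 10% fit 1 and 3. For hMPDM at rest both called 2 genes higher (4), and DESeq2 1 lower (3) and, after LPS, 1 higher (3). With 10.7% of the BMDM level taken off the hMPDM LPS library, Alox5 in the hMPDM minus BMDM response was -0.17, against 0.57, and the counts of the 10 genes called did not move, except that 4 were higher in hMPDM after LPS (3 as reported). Leaving out each BMDM library in turn, RAW at rest had 2 to 4 genes higher (2 without the first resting library) and 5 lower. The BMDM response had 4 to 5 higher and 3 to 4 lower, and the hMPDM and RAW differences of response kept 1 and 0 higher and 2 and 1 lower. Values that changed sign there were those of Pla2g4a (-0.12 to 0.0243) and Ltc4s (-0.0752 to 0.44) in the BMDM response, Ptgs2 (-0.45 to 0.10) and Alox5 (-0.13 to 0.10) in the RAW minus BMDM response, Alox5ap in hMPDM after LPS (-0.10 to 0.0092) and Alox5 in RAW after LPS (-0.18 to 0.0448). The cause of these moves was not tested. With the replicate number as a block, which the data do not show to pair the libraries, the counts of the 10 genes called stayed within 1 of those reported. The titles give the hMPDM and RAW libraries no number. Numbered 1, Alox5ap in hMPDM at rest (adjusted p = 0.0789) and Tbxas1 in hMPDM after LPS (0.0510) lost their calls, and Ptger4 in hMPDM after LPS (0.0368) gained one. Numbered 2 as in the names of their count columns, an alternative chosen after seeing the data, Pla2g4a in hMPDM at rest (0.111) and Ptger4 in RAW at rest (0.0519) lost theirs. Under either, Alox5 in the BMDM response gained one (0.0480). Depth limits what can be said of RAW, where Ptger2, Ltc4s and Tbxas1 had 2 to 22 counts a library.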
